A study of Mus musculus with 173 samples.

Results

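Skin and the white fat around the gonad were compared within the wild-type mice of a survey of Huntington's disease knock-in animals. The comparison takes the 13 libraries titled Wild Type in these tissues, 6 from skin (3 females and 3 males) and 7 from gonadal white adipose tissue (3 females and 4 males), of 173 libraries in the survey. All of these mice were C57BL/6, 6 months old, labelled Wild Type and housed with Het (Q20) mice, and polyadenylated RNA of flash-frozen tissue was sequenced on Illumina HiSeq instruments. By the animal codes in the file headers, each library of a tissue came from a separate animal, and 5 of the 8 animals gave both tissues. The labels name no body site for the skin and no hair cycle stage, and the gonadal fat pad is a different depot in females, around the ovary and uterus, and in males, around the epididymis. A second set, 8 skin and 8 gonadal libraries from Het (Q175) Knock-In mice of the same strain and age, housed with Het (Q175) mice and carrying an expanded CAG repeat in the mouse huntingtin gene, was analysed in the same way and shares no animal with the first.

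Skin is a barrier organ. Basal keratinocytes divide on a basement membrane, move upward while they switch keratins, and end as dead cornified cells whose crosslinked envelopes and extracellular lipids hold water in and microbes out, and mouse skin also holds hair follicles, sebaceous glands, dermis, a layer of subcutaneous fat and a sheet of striated muscle. Gonadal white adipose is a visceral depot of large lipid-storing adipocytes, densely supplied with capillaries and covered by mesothelium, the flat epithelium that lines the body cavity. The adipocytes take up, synthesise and release fatty acids and secrete hormones such as leptin and adiponectin.

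The estimated counts summed to 33274086 to 47027094 per skin library and 33993475 to 45148475 per gonadal library, and the 10 most abundant genes took 5.66 to 7.79% of them in skin and 13.9 to 21.7% in gonadal adipose. Levels below are CPM (counts scaled to a common library size) after TMM scaling, which corrects for such differences in composition. Where a gene has 3 values for a tissue, they are the lowest, the median and the highest library. Differences are log2 fold changes of skin over gonadal adipose with their standard errors, from edgeR's quasi-likelihood test in a model of tissue and sex. Adjusted p-values are by the Benjamini-Hochberg method over all 16643 genes tested. A gene is called at an adjusted p under 0.05. On log CPM, libraries correlated at 0.925 to 0.984 within skin, 0.948 to 0.984 within gonadal adipose and 0.669 to 0.74 between the tissues. These are bulk samples, so fewer cells of a type and less RNA per cell cannot be told apart. The library codes run in separate series for the tissues, so library series and tissue cannot be told apart either.

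Some libraries stood apart within their tissue. The hair shaft list, mainly hair keratins and their associated proteins, summed to 24790 and 16880 CPM in skin males 1 and 2 and to 72.57 to 95.62 CPM in the other 4 skin libraries. In the 7 gonadal libraries it summed to 163.4 to 225.6 CPM, nearly all of it from the member Selenbp1, a gene found in many tissues. The skeletal muscle list summed to 886.5 CPM in gonadal female 1, against 117.2 to 199.3 CPM in the other gonadal libraries. The pancreas and intestine list summed to 889.6 CPM in gonadal male 1, where the pancreatic amylase gene Amy2a5 had 340 CPM, and to 8.897 to 18.68 CPM in the other 6. In gonadal male 2 the epithelial adhesion genes Dsp and Cdh1 had 9.69 and 6.90 CPM, against at most 2.12 and 1.08 CPM in the other gonadal libraries.

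The defining transcripts of both tissues went with the labels. Krt5, the type II keratin of basal keratinocytes, had 3048, 4912 and 6219 CPM in skin and no count in any of the 7 gonadal libraries. Krt1, the type II keratin of the suprabasal layers, had 964, 1482 and 1811 CPM in skin and 0, 0 and 0.0962 CPM in gonadal adipose. Adipoq, which encodes the adipocyte hormone adiponectin, had 89.7, 262 and 329 CPM in skin and 2695, 3338 and 4205 CPM in gonadal adipose. Lep, which encodes leptin, had 12.5, 53.0 and 91.8 CPM in skin and 500, 622 and 954 CPM in gonadal adipose. No skin library overlapped a gonadal library for any of these 4 genes, and the 2 skin libraries with hair shaft transcripts had the lowest Adipoq and Lep of the 6. Against a floor of 3 counts over the 7 gonadal libraries, Krt5 was at least 395307-fold higher in skin. The log2 fold change was 15.69 ± 0.44 for Krt1 (adjusted p = 1.34e-11), -4.02 ± 0.29 for Adipoq (adjusted p = 6.11e-08) and -3.73 ± 0.44 for Lep (adjusted p = 5.94e-06).

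**Figure D1:**
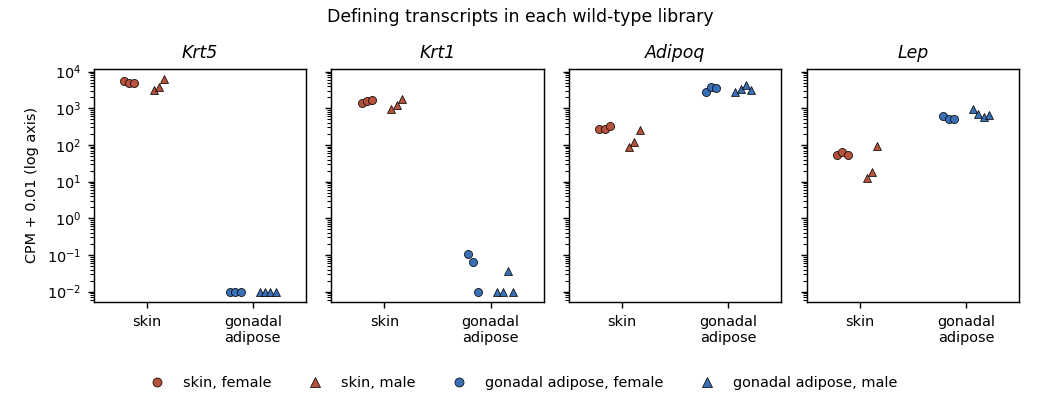
Level of the 4 defining transcripts in each wild-type library, as CPM plus 0.01 on a log axis, with skin left of gonadal adipose, circles for females and triangles for males. Krt5 sat at 3048 CPM or more in skin and at 0 in gonadal adipose, and Adipoq was present in every skin library at 89.7 to 329 CPM, below the lowest gonadal library at 2695 CPM.

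On the length-scaled FPKM values that the authors deposited, which allow genes to be compared with each other, the leading keratinocyte transcripts of skin were Krtdap (4901 ± 1454 FPKM, SD, n = 6), a secreted keratinocyte differentiation factor, Krt10 (3812 ± 1338), Krt77 (3034 ± 990), Sbsn (2910 ± 760) and Dmkn (2740 ± 657). Mitochondrially encoded genes were left out of the ranking. The 6 most abundant of the ranked gonadal transcripts were led by Fabp4 (19288 ± 3009 FPKM, SD, n = 7), the adipocyte fatty acid binding protein. After it came the complement factor Cfd (11928 ± 811), the carbonic anhydrase Car3 (11740 ± 1133) and the desaturase Scd1 (6871 ± 2656). The actin-severing protein Gsn (3775 ± 1023) and the lipase Lpl (2854 ± 359) followed. Ribosomal and elongation factor genes such as Eef1a1 (4108 ± 430 FPKM in skin and 1974 ± 207 FPKM in gonadal adipose) stood among the most abundant ranked genes of skin.

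The 2 tissues differed at most genes. Of the 16643 genes tested, 6040 (36.3%) were higher in skin and 5692 (34.2%) lower, 70.5% in all, with a median log2 fold change of 0.03. Scaled to the library total alone, without TMM, the median moved to 0.26 and the split was 7447 higher and 4442 lower, so the split of small differences depends on the scaling. Against a null of a 2-fold difference, 2729 genes (16.4%) were higher in skin and 2377 (14.3%) lower, 30.7% in all. In 4074 genes (24.5%) every skin library lay above every gonadal library, and in 3905 (23.5%) every skin library lay below. For 6762 genes (40.6%) the 95% interval of the difference lay within 2-fold either way. Among the genes past the 2-fold test 792 had a log2 fold change over 5 and 57 one under -5. No count in any gonadal library was found for 129 tested genes, against 5 with no count in any skin library. The shares of 36.3% and 34.2% and the median of 0.03 over all tested genes stand beside each list below.

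**Figure D2:**
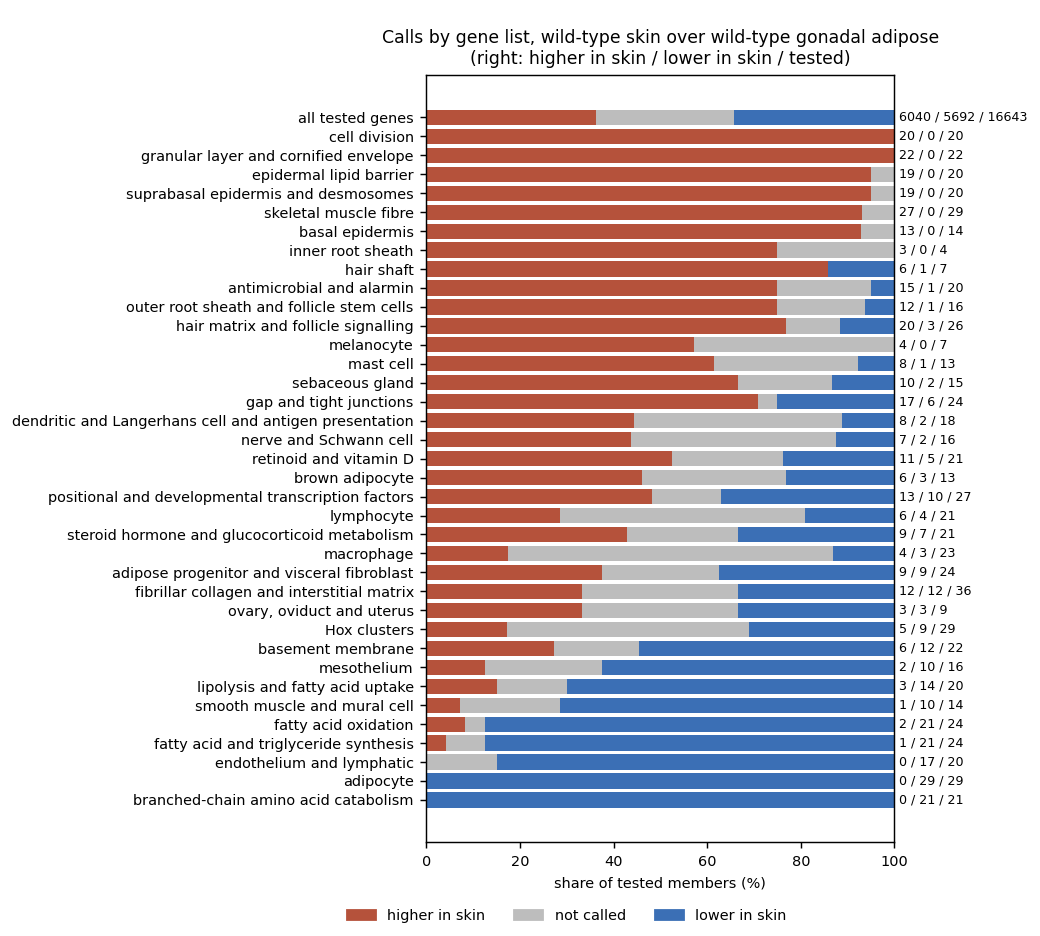
Share of the tested members of 36 gene lists that were higher in skin, not called or lower in skin, with the counts at the right and all tested genes in the top row (2 lists with under 4 tested members are left out). Members of the epidermal, cell division and skeletal muscle lists were mostly higher in skin, and members of the adipocyte, amino acid catabolism, fatty acid metabolism and endothelium lists mostly lower in skin.

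Epidermal genes were higher in skin in every layer examined. Of 14 tested basal keratinocyte genes, 13 were higher in skin and 0 lower (median log2 fold change 5.54, against 0.03 over all tested genes). Of 20 suprabasal and desmosome genes, 19 were higher and 0 lower (median 11.28), and of 22 tested genes of the granular layer and cornified envelope, 22 were higher (median 13.5 with genes absent from gonadal adipose at their bound). Krt14, the type I partner of Krt5, had 1855, 2135 and 3698 CPM in skin and 0.0275, 0.163 and 0.355 CPM in gonadal adipose (log2 fold change 13.77 ± 0.44, adjusted p = 3.72e-11). Krt15, a keratin of basal cells and of the hair follicle bulge, had 1269, 2862 and 3888 CPM in skin and 0, 0.0261 and 0.0962 CPM in gonadal adipose. Col17a1, the collagen that anchors basal cells through hemidesmosomes, had 569, 1441 and 1874 CPM in skin and 0.355, 0.656 and 1.03 CPM in gonadal adipose. No skin library came near a gonadal library for any of the 3 genes.

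Among the suprabasal genes Krt10, the partner of Krt1, had 3483, 9016 and 9431 CPM in skin and 1.86, 2.60 and 3.49 CPM in gonadal adipose (log2 fold change 11.46 ± 0.37, adjusted p = 3.44e-11). Krt77, a further type II keratin of the suprabasal layers, had 3860, 9523 and 10620 CPM in skin and at most 0.0543 CPM in gonadal adipose (18.18 ± 0.44). For Krt10 and Krt77 every skin library lay above every gonadal one, with skin males 1 and 2 lowest in skin. Sbsn, which encodes the secreted protein suprabasin, had 1759, 3760 and 4250 CPM in skin and kept a level of 49.5, 59.7 and 99.5 CPM in gonadal adipose. The desmosome genes Dsp (desmoplakin; log2 fold change 11.34 ± 1.16, adjusted p = 1.5e-06, and 12.32 without gonadal male 2) and Dsc3 (desmocollin 3; at least 59339-fold higher in skin, with no gonadal count) were higher in skin as well.

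Genes of the cornified envelope, the protein shell of the dead outer cells, often had no trace in the fat pad. Of the 22 tested, 9 had no count in any gonadal library, against 129 of all 16643 tested genes. A gene without gonadal counts could pass the filter only through its skin counts, so the direction of these 9 was fixed by the filter. Lor, which encodes loricrin, the main envelope protein, had 1145, 1776 and 2227 CPM in skin and 0.0273, 0.137 and 0.271 CPM in gonadal adipose (log2 fold change 13.64 ± 0.41, adjusted p = 1.93e-11). Asprv1, the protease that processes profilaggrin, had 684, 731 and 1250 CPM in skin and at most 0.481 CPM in gonadal adipose. Klk7, a kallikrein protease of desquamation, had 439, 566 and 671 CPM in skin and at most 0.0819 CPM in gonadal adipose. The 3 genes were similar in spread within skin, and none of their gonadal libraries reached 1 CPM. Genes without a gonadal count were at least 104919-fold higher in skin for Calm4, a calmodulin-like gene of mouse epidermis, at least 99595-fold for Lce1m and at least 24351-fold for Lce1c, late cornified envelope genes, and at least 71963-fold for the filaggrin relative Flg2. The bounds were at least 44955-fold for Crct1, a cysteine-rich cornified cell protein, and at least 31384-fold for Kprp, a keratinocyte proline-rich protein. Late cornified envelope genes and keratins have close paralogs, and the sources used here do not give how the authors' counting shared reads between them, so the level of a single paralog is uncertain.

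The lipid barrier genes went the same way. Of 20 tested genes of epidermal lipid synthesis and processing, 19 were higher in skin and 0 lower (median log2 fold change 8.41). Elovl4, which elongates the very long fatty acids of barrier ceramides, had 238, 366 and 450 CPM in skin and 0.11, 0.289 and 0.846 CPM in gonadal adipose (9.98 ± 0.37, adjusted p = 1.28e-10). Alox12e, an epidermal lipoxygenase, had 134, 307 and 582 CPM in skin and at most 0.328 CPM in gonadal adipose. Acer1, an alkaline ceramidase, had 115, 154 and 223 CPM in skin and at most 0.128 CPM in gonadal adipose. Skin and gonadal libraries did not overlap for any of them. Lipm, an epidermal acid lipase, and Pla2g2f, a secreted phospholipase A2, had no gonadal count and were at least 18194-fold and at least 36847-fold higher in skin.

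The promoters of 4 genes are shown because these genes mark a suprabasal keratinocyte, a cornified cell, a hair shaft cell and an adipocyte. Each run is the 250 bases before the transcription start in the RefSeq promoter table (build GRCm38.p6), written 5′ to 3′ on the gene's strand, and capitals mark TATAAA, the core letters of a TATA box.
Krt10 (chr11:99389365-99389614, minus strand): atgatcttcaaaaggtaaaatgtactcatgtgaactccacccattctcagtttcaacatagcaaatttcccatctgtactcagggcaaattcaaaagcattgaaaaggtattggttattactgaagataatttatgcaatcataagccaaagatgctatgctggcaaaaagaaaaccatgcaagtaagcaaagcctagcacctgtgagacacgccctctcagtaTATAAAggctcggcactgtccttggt
Lor (chr3:92083143-92083392, minus strand): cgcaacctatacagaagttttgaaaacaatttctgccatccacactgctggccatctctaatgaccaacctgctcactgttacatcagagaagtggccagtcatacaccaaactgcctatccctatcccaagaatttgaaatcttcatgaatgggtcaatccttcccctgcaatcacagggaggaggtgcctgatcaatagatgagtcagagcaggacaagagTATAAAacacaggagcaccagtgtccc
Krt31 (chr11:100050552-100050801, minus strand): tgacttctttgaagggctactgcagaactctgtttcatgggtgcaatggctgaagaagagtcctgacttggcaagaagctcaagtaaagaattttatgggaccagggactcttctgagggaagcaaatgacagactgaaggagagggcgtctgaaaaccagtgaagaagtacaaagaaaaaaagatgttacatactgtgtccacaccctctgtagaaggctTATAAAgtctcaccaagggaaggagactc
Adipoq (chr16:23146286-23146535, plus strand): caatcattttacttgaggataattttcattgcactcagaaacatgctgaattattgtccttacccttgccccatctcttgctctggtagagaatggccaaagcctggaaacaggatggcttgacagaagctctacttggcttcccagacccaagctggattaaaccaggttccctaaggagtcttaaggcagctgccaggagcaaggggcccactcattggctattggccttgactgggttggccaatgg
TATAAA began 26 bases before the start in Krt10, 27 in Lor and 29 in Krt31, and was not found on either strand of the Adipoq window. The letters TATAAA were searched on both strands of every promoter window of 250 bases. They were present in 25 of the 29 hair shaft genes with a promoter in the table (86.2%) and in 8 of 23 granular and cornified genes (34.8%). The share was 14.3% in basal genes (1 of 7), 20% in suprabasal genes (2 of 10), 6.25% in lipid barrier genes (1 of 16), 15% in adipocyte genes (3 of 20), 0 of 15 in lipolysis genes and 5% in fatty acid synthesis genes (1 of 20). Over all 27025 promoters in the table it was 14.3%, and over the 12206 of tested genes 8.74%. On the gene's own strand with the first base 24 to 36 bases before the start, the letters were found in 18 hair shaft genes (62.1%), 6 granular and cornified genes (26.1%), 2 of 10 suprabasal genes (20%), 2 of 20 adipocyte genes (10%), 1 of 20 fatty acid synthesis genes (5%) and 0 basal, lipid barrier and lipolysis genes. The share was 2.18% of all promoters and 1.72% of those of tested genes. Hair shaft genes are families of recent duplicates whose promoters share sequence, so they are not independent of each other. A direct repeat of AGGTCA with 1 base between, a motif bound by dimers of PPAR and RXR receptors, was searched in the same windows on both strands. It was present in 11 of all 27025 promoters (0.0407%) and in none of the windows of these lists, which says only that these letters are not in these windows.

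Hair follicle genes were higher in skin, and their size rested on skin males 1 and 2. Of 37 hair shaft genes listed and present in the files, 7 were tested, of which 6 were higher in skin and 1 lower. The filter asked for a minimum count in as many libraries as skin has. A gene present only in skin males 1 and 2 was therefore not tested, whatever its level. The list sums above include the 30 untested genes, and the counts of calls do not. Krt31, a type I hair keratin, had 895 and 528 CPM in skin males 1 and 2 and 0.327 to 0.452 CPM in the other 4 skin libraries, and no gonadal count. Krtap3-2, a keratin-associated protein of the hair cortex, had 704.6 and 555 CPM in those 2 libraries and 14.4 to 26.1 CPM in the other 4. Tchh, which encodes trichohyalin of the inner root sheath, had 9930 and 6519 CPM in them, 5.35 to 9.99 CPM in the other skin libraries and 0.469 to 2.29 CPM in gonadal adipose. The hair transcripts thus separated the skin libraries into 2 and 4, and the lower 4 still lay above every gonadal library for all 3 genes. With the animal as a block, which rests on the 5 animals with both tissues, the Tchh difference was 5.99 (adjusted p = 0.0773), and with the animal correlation estimated Krt31 was not called (adjusted p = 0.0748). Without skin males 1 and 2 Krt31 was still called (adjusted p = 0.000379) and the log2 fold change of Tchh was 3.07 (adjusted p = 1.06e-05), against 9.72 with them. Hoxc13, the homeobox factor of the hair shaft, had 141 and 97.7 CPM in skin males 1 and 2, 1.36 to 2.98 CPM in the other 4 and at most 0.0819 CPM in gonadal adipose (11.06 ± 1.33, adjusted p = 7.11e-06, and 6.69 without skin males 1 and 2). The 1 member lower in skin, Selenbp1, a selenium-binding protein found in many tissues, had 42.2, 47.9 and 173 CPM in skin and 163, 185 and 225 CPM in gonadal adipose (-1.32 ± 0.33, adjusted p = 0.00273), and was not called in males alone (-0.64, adjusted p = 0.209).

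Of 16 outer root sheath and follicle stem cell genes, 12 were higher in skin and 1 lower (median log2 fold change 6.37). Krt17, a keratin of the outer root sheath, had 472, 640 and 1469 CPM in skin and at most 0.136 CPM in gonadal adipose (14.35 ± 0.54, adjusted p = 1.49e-10). Krt75, a keratin of the companion layer, had 627 and 411 CPM in skin males 1 and 2, 17.1 to 33.6 CPM in the other skin libraries and at most 0.109 CPM in gonadal adipose. The gene lower in skin was Cd200, which encodes an immune-modulating surface protein used as a marker of bulge cells and also made by endothelium (21.8, 27.6 and 35.3 CPM in skin and 41.6, 57.5 and 74.3 CPM in gonadal adipose). Of 26 genes of hair matrix and follicle signalling, 20 were higher and 3 lower (median 4.01). They included the fibroblast growth factor receptor Fgfr2 (2.92 ± 0.25, adjusted p = 2.4e-07), the ligand Wnt4 (6.09 ± 0.47, adjusted p = 1.02e-07), the transcription factor Ovol1 (6.70 ± 0.28, adjusted p = 4.06e-10) and the homeobox factor Dlx3, which had 362 and 289 CPM in skin males 1 and 2, 27.4 to 29.2 CPM in the other skin libraries and at most 0.218 CPM in gonadal adipose. Lower in skin were Trps1, a zinc finger factor (-1.04 ± 0.33, adjusted p = 0.0117), the hedgehog receptor Ptch1 (-1.28 ± 0.31, adjusted p = 0.00218) and the ectodysplasin ligand Eda (-0.39 ± 0.14, adjusted p = 0.0271). In males alone Trps1 (-0.47, adjusted p = 0.398) and Ptch1 (-0.77, adjusted p = 0.119) were not called, and 1 member of the list was lower. The Eda call was lost when 7 of the 13 libraries were left out in turn, the 3 skin males, gonadal female 3 and gonadal males 2, 3 and 4 (adjusted p of 0.0532 to 0.0765), and with the animal as a block (adjusted p = 0.0784).

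Of 15 sebaceous gland genes, 10 were higher in skin and 2 lower (median 4.05). Krt79, a keratin of the sebaceous duct, had 159, 229 and 392 CPM in skin and 0.738, 2.93 and 5.14 CPM in gonadal adipose (6.56 ± 0.34, adjusted p = 2.44e-09), and Far2, which makes the fatty alcohols of wax esters, had 22.3, 41 and 73.1 CPM in skin and 2.59, 2.78 and 4.5 CPM in gonadal adipose. The 2 members lower in skin, Pparg, the master transcription factor of adipocytes, and Mgst1, a microsomal glutathione transferase, are also adipocyte genes, and Pparg had 6.28, 20.5 and 23.1 CPM in skin and 174, 271 and 282 CPM in gonadal adipose (-3.92 ± 0.27, adjusted p = 3.48e-08). Of 7 tested melanocyte genes, 4 were higher in skin. Dct, an enzyme of melanin synthesis, had 118 and 99.9 CPM in skin males 1 and 2, 1.04 to 2.47 CPM in the other skin libraries and 1.77 to 4.13 CPM in gonadal adipose. Pmel, the melanosome fibre protein, had 72.5 and 59.3 CPM in those 2 libraries, 0.752 to 1.29 CPM in the other 4 and 0.417 to 1.16 CPM in gonadal adipose. In females alone the melanocyte count was 0 higher and 1 lower, and without skin males 1 and 2 it was 2 higher and 3 lower. Without those 2 libraries the log2 fold change was -0.49 for Dct (adjusted p = 0.228) and 0.40 for Pmel (adjusted p = 0.296), against 2.64 and 3.65 with them. With the correlation of libraries of the same animal estimated (limma voom) 2 melanocyte genes were higher, and neither Dct (adjusted p = 0.169) nor Pmel (adjusted p = 0.0584) was called. With the animal as a block 2 were higher as well, and the values of Dct and Pmel were 1.65 (adjusted p = 0.334) and 2.32 (adjusted p = 0.2), and the Dct call was also lost when any of skin males 1 and 2 or gonadal males 1 to 4 was left out (adjusted p of 0.058 to 0.086).

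All 20 tested genes of cell division were higher in skin (median 3.27), also without skin males 1 and 2. Mki67, a marker of cycling cells, had 198 and 156 CPM in skin males 1 and 2, 19.1 to 49.0 CPM in the other 4 and 5.32 to 9.32 CPM in gonadal adipose (3.39 ± 0.44, adjusted p = 1.42e-05). Top2a, a topoisomerase of dividing cells, had 165 and 111 CPM, 17.8 to 37.9 CPM and 3.49 to 5.85 CPM in the same order (3.59 ± 0.43, adjusted p = 7.16e-06). Cell division transcripts were thus highest in the 2 skin libraries with hair transcripts, and the part of the follicle in them was not tested. The list summed to 1239 and 968.1 CPM in those 2 libraries, 266.8 to 396.9 CPM in the other 4 and 81.58 to 104.5 CPM in gonadal adipose.

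**Figure D3:**
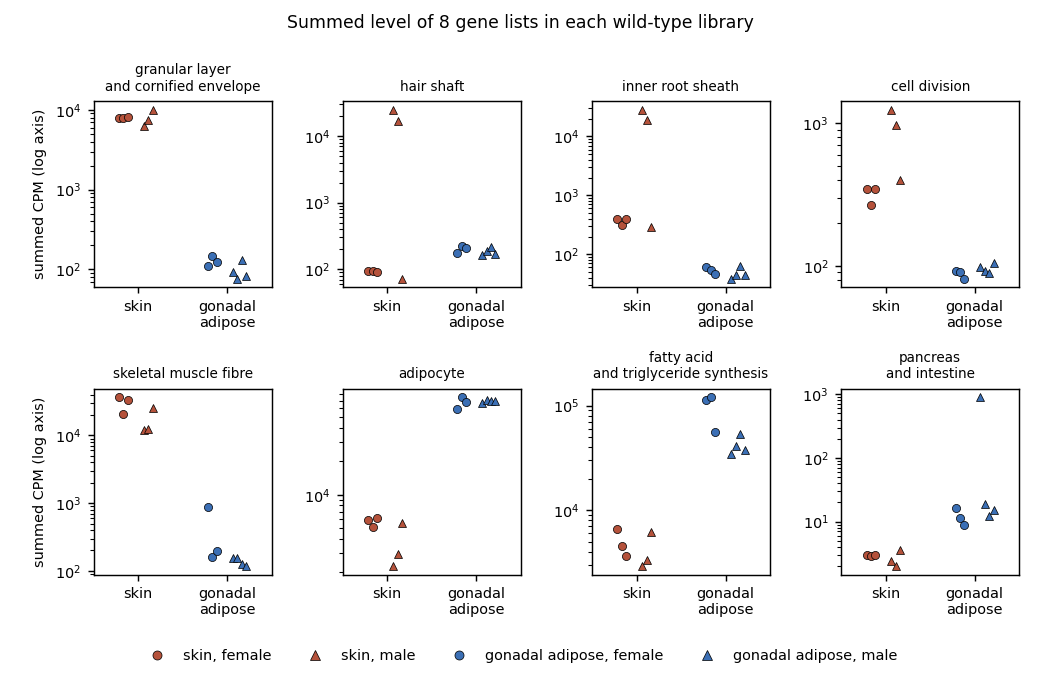
Summed CPM of 8 gene lists in each wild-type library on a log axis, with skin left of gonadal adipose, circles for females and triangles for males. Skin males 1 and 2 stood at 24790 and 16880 CPM in hair shaft and lowest in muscle and adipocyte genes among skin, gonadal females 1 and 2 stood highest in fatty acid synthesis, and gonadal male 1 reached 889.6 CPM in the pancreas list.

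Every adipocyte gene tested was lower in skin: 29 of 29, with a median log2 fold change of -4.02. The list summed to 2275, 5314 and 6199 CPM in skin and 59130, 69700 and 75040 CPM in gonadal adipose. Car3, a carbonic anhydrase abundant in fat, had 355, 1340 and 1882 CPM in skin and 16326, 19502 and 21033 CPM in gonadal adipose (-4.19 ± 0.38, adjusted p = 5.51e-07). Fabp4 had 725, 886 and 1581 CPM in skin and 10130, 13745 and 15961 CPM in gonadal adipose (-3.76 ± 0.21, adjusted p = 6.33e-09). Cfd, which encodes adipsin, was lower by -3.80 ± 0.22 and the fatty acid translocase Cd36 by -4.03 ± 0.30. The tissues did not overlap for any of these genes, and each was present in every skin library. The largest falls among all genes with at least 10 CPM included further adipocyte genes: Adrb3, the fat-cell adrenergic receptor, had 13.5, 42 and 50 CPM in skin and 675, 1068 and 1383 CPM in gonadal adipose (-5 ± 0.36, adjusted p = 5.32e-08), and Aoc3, a surface amine oxidase, had 14.9, 67.5 and 85.2 CPM in skin and 1531, 1936 and 2181 CPM in gonadal adipose (-5.07 ± 0.42, adjusted p = 2.33e-07). Mogat1, a monoacylglycerol acyltransferase, the carboxylesterase Ces1f and Gys2, a glycogen synthase, were lower by -5.13 ± 0.33, -5.16 ± 0.34 and -5.15 ± 0.47.

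Fat release and uptake went with the adipocyte genes. Of 20 tested genes of lipolysis and fatty acid uptake, 14 were lower in skin and 3 higher (median -2.76). Lpl, the lipase that frees fatty acids from lipoproteins, had 391.9, 702.7 and 929 CPM in skin and 11031, 12152 and 15240 CPM in gonadal adipose (-4.18 ± 0.23, adjusted p = 4.63e-09). Lipe and Pnpla2, the hormone-sensitive and the adipose triglyceride lipase, were lower by -4.13 ± 0.20 and -3.81 ± 0.24. The genes higher in skin included the acyl-CoA synthetases Acsl5 (1.52 ± 0.10, adjusted p = 1.58e-08) and Acsl3 (1.55 ± 0.29, adjusted p = 0.000368). Acyl-CoA synthetases were thus divided, since Acsl1 had 117, 340 and 423 CPM in skin and 959, 1775 and 4791 CPM in gonadal adipose (-2.97 ± 0.27, adjusted p = 4.4e-07).

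Of 24 genes of fatty acid and triglyceride synthesis, 21 were lower in skin and 1 higher (median -3.17). Fasn, the fatty acid synthase, had 133, 235 and 486 CPM in skin and 1582, 7279 and 25666 CPM in gonadal adipose (-4.78 ± 0.66, adjusted p = 2.36e-05). Within gonadal adipose Fasn was highest in females 1 and 2, at 25670 and 22990 CPM, and 1582 to 7940 CPM in the other 5. The list as a whole summed to 112500 and 119400 CPM in those 2 libraries, against 34650 to 55330 CPM in the others. Acaca, the acetyl-CoA carboxylase that feeds Fasn, split in the same way (63.3, 88.3 and 143 CPM in skin and 440, 1807 and 5305 CPM in gonadal adipose). The gene higher in skin was Elovl1, an elongase of saturated very long fatty acids, with 204, 357 and 409 CPM in skin and 27.6, 42.9 and 45.6 CPM in gonadal adipose (3.07 ± 0.20, adjusted p = 1.83e-08). Elovl6, which lengthens palmitate, at 102 to 187 CPM in skin and 20.6 to 1281 CPM in gonadal adipose, was not called. In females alone Elovl6 was lower in skin (-2.68, adjusted p = 0.00304) and in males alone higher (1.55, adjusted p = 0.0329).

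Breakdown genes moved with synthesis genes. Of 24 fatty acid oxidation genes, 21 were lower in skin and 2 higher (median -1.25), with the mitochondrial dehydrogenase Acadm at -1.91 ± 0.12 (adjusted p = 1.18e-08). The 2 higher were Cpt1b, the muscle form of the carnitine palmitoyltransferase (17.5, 36.5 and 47.7 CPM in skin and 3.88, 5.13 and 6.76 CPM in gonadal adipose), and the thiolase Acaa2 (0.25 ± 0.10, adjusted p = 0.0425). The Acaa2 call was lost with the animal as a block (0.16, adjusted p = 0.27) and when skin female 1, skin female 3, skin male 2, gonadal female 1, gonadal female 3 or gonadal male 3 was left out. All 21 tested genes of branched-chain amino acid catabolism were lower in skin (median -2.11), among them the dehydrogenases Aldh6a1 (-3.43 ± 0.24, adjusted p = 4.79e-08) and Ivd (-2.45 ± 0.10, adjusted p = 3.39e-10). The brown adipocyte list was mixed, with 6 of 13 higher and 3 lower. The higher genes included Cpt1b and the cytochrome oxidase subunit Cox8b (2.09 ± 0.35, adjusted p = 0.000136), both also made in striated muscle, and the lower included Ebf2, a transcription factor of adipocyte precursors (-2.20 ± 0.32, adjusted p = 3.84e-05).

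Striated muscle genes were higher in skin. Of 29 tested skeletal muscle genes, 27 were higher and 0 lower (median 7.37). Myh4, the fast myosin heavy chain, had 924, 3585 and 5685 CPM in skin and 0, 0.136 and 85.1 CPM in gonadal adipose (9.96 ± 1.89, adjusted p = 0.000372). Acta1, skeletal actin, had 1521, 3121 and 5280 CPM in skin and 5.30, 16.3 and 128 CPM in gonadal adipose (6.70 ± 0.64, adjusted p = 8e-07). The highest gonadal value of both genes was that of female 1, and the lowest skin list sums were those of males 1 and 2, at 11870 and 12480 CPM, against 20860 to 36430 CPM in the other skin libraries. The calcium pump Atp2a1 (9.54 ± 1.69) and the troponin Tnnt3 (9.51 ± 1.31) were higher too. Without gonadal female 1 the log2 fold changes were 13.35 for Myh4, 7.38 for Acta1, 12.75 for Atp2a1 and 11.73 for Tnnt3. In females alone Myh4 (7.27, adjusted p = 0.0739) and Atp2a1 (7.11, adjusted p = 0.0644) were not called.

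Vessel genes were lower in skin. Of 20 endothelial and lymphatic genes, 17 were lower and 0 higher (median -2.68). Cdh5, the endothelial cadherin, had 7.44, 17 and 26.5 CPM in skin and 174, 213 and 278 CPM in gonadal adipose (-3.70 ± 0.28, adjusted p = 1.07e-07). Kdr, the main receptor for vascular endothelial growth factor, had 6.44, 14.9 and 23.6 CPM in skin and 140, 183 and 207 CPM in gonadal adipose (-3.60 ± 0.24, adjusted p = 3.28e-08). Neither gene overlapped between tissues. Of 14 smooth muscle and pericyte genes, 10 were lower and 1 higher (median -1.58). In males alone 6 were lower. Rgs5, a pericyte regulator of G protein signalling, had 25.6, 48.6 and 67.3 CPM in skin and 273, 344 and 565 CPM in gonadal adipose (-3.01 ± 0.25, adjusted p = 2.09e-07), and the smooth muscle myosin Myh11 was lower by -3 ± 0.33. The exception was Des, which encodes desmin, an intermediate filament of striated muscle as well (3.09 ± 0.29, adjusted p = 6.43e-07).

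Nerve genes were divided: 7 of 16 were higher in skin and 2 lower, with 7 not called. Among the higher was Egr2, a transcription factor of myelinating Schwann cells, at 3.67 ± 0.51 (adjusted p = 2.61e-05). Scn7a, a sodium channel of non-myelinating Schwann cells, was lower, with 14, 29.9 and 35 CPM in skin and 192, 256 and 346 CPM in gonadal adipose (-3.31 ± 0.28, adjusted p = 2.42e-07). The tissues did not overlap for Scn7a.

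The extracellular matrix did not go one way. Of 36 genes of fibrillar collagen and interstitial matrix, 12 were higher in skin and 12 lower (median -0.04), and 14 higher and 8 lower when scaled to the library total. Col1a1, the main chain of dermal collagen, had 147, 533 and 1216 CPM in skin and 115, 127 and 304 CPM in gonadal adipose (1.68 ± 0.45, adjusted p = 0.00473). Col1a2 had 384, 1039 and 2240 CPM in skin and 257, 404 and 636 CPM in gonadal adipose (1.45 ± 0.28, adjusted p = 0.000376). Both overlapped between the tissues, and within skin the 3 males had 756 to 1216 CPM of Col1a1 and the 3 females 147 to 309 CPM. In females alone neither was called (0.44, adjusted p = 0.405 for Col1a1 and 0.80, adjusted p = 0.0615 for Col1a2). Lower in skin were Sparc, a matrix glycoprotein (-1.31 ± 0.17, adjusted p = 1.52e-05), and Col5a3, a type V collagen chain (28.5, 44.1 and 77.6 CPM in skin and 123, 428 and 635 CPM in gonadal adipose; -2.89 ± 0.28, adjusted p = 8.51e-07). Basement membrane genes were lower more often, 12 of 22 lower and 6 higher (median -1.04). Col4a1 and Col4a2, the paired chains of type IV collagen in most basement membranes, were lower by -2.80 ± 0.19 and -2.96 ± 0.14, and Col15a1, a collagen beside capillaries and adipocytes, had 31.9, 41.5 and 53.5 CPM in skin and 354, 553 and 770 CPM in gonadal adipose (-3.69 ± 0.21, adjusted p = 7.42e-09). Higher in skin was Col7a1, the anchoring fibril collagen below the epidermis, with 89.2, 211 and 267 CPM in skin and 1.60, 1.95 and 2.73 CPM in gonadal adipose (6.56 ± 0.25, adjusted p = 1.95e-10).

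Of 24 tested genes of gap and tight junctions, 17 were higher in skin and 6 lower (median 5.93). Higher were the epithelial cadherin Cdh1 (388, 465 and 541 CPM in skin and 0.0261, 0.225 and 6.90 CPM in gonadal adipose, the highest being male 2; 9.01 with that library and 10.52 without it), the tight junction claudin Cldn1 (7.70 ± 0.48, adjusted p = 1.53e-08) and Gja1, the connexin of many tissues, which had 1198 and 797 CPM in skin males 1 and 2, 158 to 235 CPM in the other skin libraries and 59.9 to 167 CPM in gonadal adipose. Gja1 was not called in females alone (0.48, adjusted p = 0.133). Lower were the endothelial claudin Cldn5 (-3.33 ± 0.35, adjusted p = 1.96e-06) and Cldn15, which had 1.39, 2.07 and 4.66 CPM in skin and 42.9, 46.8 and 60.3 CPM in gonadal adipose (-4.34 ± 0.27, adjusted p = 1.69e-08). The connexin Gjc1 (-2.60 ± 0.32, adjusted p = 7.7e-06) and Tjp1, a tight junction scaffold of epithelia and endothelia (-1.06 ± 0.12, adjusted p = 3.04e-06), were lower too.

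Of 23 macrophage genes, 4 were higher in skin and 3 lower, with 16 not called (median 0.25). With the animal as a block, 0 were higher and 2 lower, and without skin males 1 and 2 the count was 8 higher and 2 lower. It was 10 higher and 1 lower in females alone, and 0 higher and 3 lower in males alone. Mertk, a receptor for the uptake of dying cells, was the clearest, with 6.42, 10.7 and 13.9 CPM in skin and 36, 54.6 and 66.1 CPM in gonadal adipose (-2.26 ± 0.17, adjusted p = 8.14e-08), while Retnla, a product of alternatively activated macrophages and also of adipose tissue, had 215, 779 and 927 CPM in skin and 137, 220 and 406 CPM in gonadal adipose (1.40 ± 0.34, adjusted p = 0.00256; with the animal as a block 1.17, adjusted p = 0.0781, and in males alone 0.79, adjusted p = 0.17). The macrophage count higher in skin was 8 without gonadal male 3, and 2 without any one of skin females 2 and 3, gonadal females 2 and 3 and gonadal males 2 and 4. Of 21 lymphocyte genes, 6 were higher and 4 lower. The T-cell receptor component Cd3g had 6.81, 17.5 and 28.8 CPM in skin and 0.732, 1.15 and 2.69 CPM in gonadal adipose (3.54 ± 0.36, adjusted p = 1.54e-06), and Cd3e of the same complex was higher by 3.06 ± 0.27. The 4 lower in skin were Ighm, Jchain, Gzma and Klrb1c. Ighm, the immunoglobulin M heavy chain, had 23.1, 53.4 and 74.7 CPM in skin and 212, 359 and 545 CPM in gonadal adipose (-2.90 ± 0.31, adjusted p = 2.22e-06), and Jchain, the joining chain of secreted immunoglobulin, was lower by -4.13 ± 0.53 (adjusted p = 1.37e-05). Gzma, a granzyme of cytotoxic lymphocytes, was at -2.40 ± 0.43 (adjusted p = 0.000259), and Klrb1c, a natural killer cell receptor, at -1.09 ± 0.37 (adjusted p = 0.0169), which was not called in females alone (-0.52, adjusted p = 0.193) or without skin males 1 and 2 (-0.61, adjusted p = 0.0579).

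Of 18 genes of dendritic cells, Langerhans cells and antigen presentation, 8 were higher in skin and 2 lower (median 0.49). The class II genes were among the higher, with Cd74, the invariant chain, at 337, 856 and 1080 CPM in skin and 269, 408 and 548 CPM in gonadal adipose (0.94 ± 0.24, adjusted p = 0.00375), which overlapped. With the animal as a block 5 of the list were higher, and Cd74 was at 0.81 (adjusted p = 0.0861). In males alone 3 were higher, and Cd74 was at 0.50 (adjusted p = 0.204). Lower were Zbtb46, a transcription factor of conventional dendritic cells that endothelium also makes (-2.79 ± 0.20, adjusted p = 4.74e-08), and Clec9a, a receptor of cross-presenting dendritic cells (-2.68 ± 0.46, adjusted p = 0.000166). Mast cell genes were higher in skin, 8 of 13, with 1 lower (median 1.79). Mcpt4, a chymase of connective tissue mast cells, had 30.3, 58.2 and 107 CPM in skin and 2.88, 6.32 and 19.2 CPM in gonadal adipose (2.93 ± 0.44, adjusted p = 4.76e-05), and the prostaglandin D synthase Hpgds had 31.4, 93.0 and 140 CPM in skin and 3.96, 6.29 and 8.83 CPM in gonadal adipose. Of 20 tested antimicrobial and alarmin genes, 15 were higher and 1 lower (median 5.51). Cxcl14, a chemokine of epithelia, had 122, 177 and 220 CPM in skin and 3.25, 4.02 and 10.6 CPM in gonadal adipose, and the beta-defensin Defb6 (32.1, 53.8 and 86.2 CPM in skin) had no gonadal count. The gene lower in skin was Slpi, a secreted protease inhibitor (-2.48 ± 0.36, adjusted p = 3.58e-05).

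Mesothelial genes were mostly lower in skin. Of 16 mesothelium genes, 10 were lower in skin and 2 higher (median -2.03). Wt1, the Wilms tumour factor of mesothelium and gonad, had 0, 0 and 0.0536 CPM in skin and 8.38, 18.5 and 30.1 CPM in gonadal adipose, the largest fall of the genes with at least 10 CPM (-10.04 ± 0.58, adjusted p = 7.48e-09). Msln, which encodes mesothelin, had 0.116, 0.175 and 0.295 CPM in skin and 4.08, 19.6 and 38.9 CPM in gonadal adipose (-6.67 ± 0.54, adjusted p = 1.67e-07), and Lrrn4, a leucine-rich membrane protein, was lower by -6.68 ± 0.75. The 3 genes varied several-fold within gonadal adipose. Their lack of overlap between the tissues was a condition for naming them among the largest falls. Over all tested genes 23.5% lay below in skin without overlap. Upk3b, a mesothelial uroplakin, had 2.36, 5.86 and 7.67 CPM in skin and 13.3, 52.8 and 133 CPM in gonadal adipose. The 2 mesothelium list members higher in skin were Bnc1, a zinc finger factor that basal keratinocytes also make (8.89, 10.7 and 38.1 CPM in skin and 1.41, 4.76 and 10.4 CPM in gonadal adipose), and Krt20 (3.35 ± 0.51, adjusted p = 6.18e-05). Without skin males 1 and 2 Bnc1 was not called (0.82, adjusted p = 0.156).

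Of 27 tested positional and developmental transcription factors, 13 were higher in skin and 10 lower, so 23 were called. Higher in skin were Barx2 (45.3, 67.4 and 78.2 CPM in skin and 0.11, 0.437 and 0.609 CPM in gonadal adipose; 7.45 ± 0.31, adjusted p = 3.45e-10), Tbx15, a T-box factor of dermis and of subcutaneous fat in mice (31.7, 46.5 and 67.9 CPM in skin and 0.0784, 0.218 and 0.706 CPM in gonadal adipose; 7.29 ± 0.36, adjusted p = 1.72e-09), and the Iroquois factors Irx5 (6.67 ± 0.27, adjusted p = 3.16e-10) and Irx3 (2.20 ± 0.18, adjusted p = 1.41e-07). The homeobox factors Dlx5 and En1 were higher by 5.23 ± 0.41 and 3.31 ± 0.39, and Pax3, a neural crest and muscle factor, had 0.621, 1.01 and 1.51 CPM in skin and no gonadal count (at least 90-fold higher). Lower in skin beside Wt1 was Tcf21, a factor of visceral mesenchyme, with 0, 0 and 0.0410 CPM in skin and 3.56, 6.65 and 10.6 CPM in gonadal adipose. From the pooled counts Tcf21 was 753-fold lower in skin, with a counting interval of 209 to 6.22e+03, and Gata5 138-fold lower, with an interval of 47.1 to 667. Gata6 (13, 16.7 and 24.6 CPM in gonadal adipose; -2.22 ± 0.24, adjusted p = 2.52e-06), the orphan receptors Nr2f1 (-3.19 ± 0.24, adjusted p = 8.28e-08) and Nr2f2 (-2.09 ± 0.22, adjusted p = 2.05e-06) and the mesodermal homeobox factor Meox2 (-1.94 ± 0.18, adjusted p = 4.67e-07) were lower as well.

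Hox genes, whose combinations mark position along the body axis, were divided, with 5 of 29 higher in skin and 9 lower (median -0.45). Beside Hoxc13, the higher genes were Hoxa5, Hoxa7, Hoxb2 and Hoxb7, at log2 fold changes of 0.55 to 1.74. The Hoxa5 call was lost with the animal as a block (0.51, adjusted p = 0.0888) and when skin female 1, skin male 2, skin male 3 or gonadal female 2 was left out. Hoxc8 had 20.2, 26.5 and 33.7 CPM in skin and 47.1, 129 and 166 CPM in gonadal adipose (-1.82 ± 0.27, adjusted p = 4.92e-05), and Hoxd3 had 1.99, 4.32 and 7.96 CPM in skin and 14, 24.5 and 32.2 CPM in gonadal adipose (-2.33 ± 0.27, adjusted p = 4.43e-06). Several Hox genes that were not called over both sexes had a gonadal level that depended on sex. Hoxa10 had 2.73, 3.39 and 4.84 CPM in the 3 skin females, 0.950, 4.36 and 5.87 CPM in the 3 skin males, 21.6, 12.5 and 23.5 CPM in the 3 gonadal females and 0.273 to 2.12 CPM in the 4 gonadal males. Hoxc10 had 24.8, 25.5 and 27.6 CPM in gonadal females and 0.328 to 1.82 CPM in gonadal males, beside 0.324 to 4.26 CPM in the 6 skin libraries. For both genes the 3 gonadal females lay above every skin library, and the gonadal males overlapped the skin libraries or lay below them. The difference between the sexes in the skin over gonadal contrast was tested as an interaction, males minus females on the log2 scale, and was 5.17 ± 0.96 for Hoxc10 (adjusted p = 0.0345), 4.26 ± 0.91 for Hoxa10 (adjusted p = 0.0488) and 9.22 ± 1.67 for Hoxa11 (adjusted p = 0.032), while Hoxa9 missed the threshold (3.39 ± 0.75, adjusted p = 0.0551). Hoxc8 went the opposite way (-1.58 ± 0.25, adjusted p = 0.0176), with 129.4 to 166.3 CPM in gonadal males and 47.1 to 58.7 CPM in gonadal females, as did Hoxc4 (-2.07 ± 0.42, adjusted p = 0.041). Hoxa11 averaged 0.463 and 0.0498 CPM in skin males and females, 0.103 CPM in gonadal males and 6.99 CPM in gonadal females. The size of its interaction therefore rests on values near the floor. The interaction calls of these Hox genes were near the threshold. That of Hoxc4 was lost when 11 of the 13 libraries were left out in turn, that of Hoxa10 with 9 and that of Hoxc10 with 7, at adjusted p-values up to 0.131. That of Hoxa11 was lost in 5 of the 8 leave-outs in which the gene was tested (each of the 3 skin females, skin male 2 and gonadal male 4, adjusted p of 0.0523 to 0.0917), while that of Hoxc8 held in each. Without skin males 1 and 2 the interactions of Hoxc8 (adjusted p = 0.147), Hoxa10 (adjusted p = 0.0631) and Hoxc4 (adjusted p = 0.308) were not called. In females alone Hoxa9, Hoxa10, Hoxa11 and Hoxc10 were lower in skin (-1.49, -2.39, -7.11 and -3.72), and in males alone Hoxa9 was higher (1.91). These genes were picked after their values were seen, and 175 genes (1.05%) passed the interaction in all, as described further below.

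**Figure D4:**
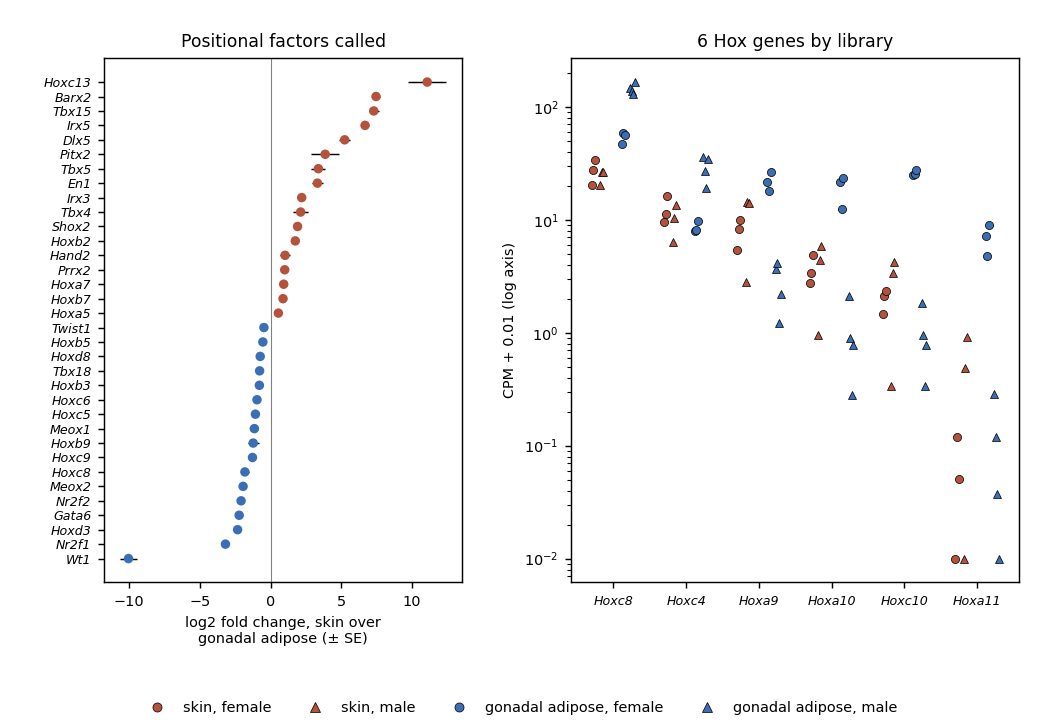
Left, log2 fold change of skin over gonadal adipose with its standard error for 34 called positional factors and Hox genes, from Wt1 at -10.04 to Hoxc13 at 11.06. Right, level of 6 Hox genes in each library as CPM plus 0.01 on a log axis, skin left of gonadal adipose within each gene, where gonadal females and males separate in opposite directions for Hoxc8 and Hoxc10.

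Of 24 genes of adipose progenitors and visceral fibroblasts, 9 were higher in skin and 9 lower (median 0.21). Higher was Pi16, a marker of fibroblasts shared by many tissues (62, 177 and 400 CPM in skin and 14.4, 29.1 and 61.0 CPM in gonadal adipose; 2.35 ± 0.40, adjusted p = 0.000151). Lower were Igf1, insulin-like growth factor 1 (-2.72 ± 0.18, adjusted p = 2.12e-08), and Agt, angiotensinogen, with 5.84, 13.4 and 21.1 CPM in skin and 99.2, 314 and 423 CPM in gonadal adipose (-4.16 ± 0.46, adjusted p = 3.15e-06). In the retinoid and vitamin D list, 11 of 21 were higher and 5 lower (median 0.97). Among the higher, Crabp2, the cellular retinoic acid binding protein, had 50.6, 65.5 and 75.5 CPM in skin and at most 0.138 CPM in gonadal adipose (10 ± 0.29, adjusted p = 1.47e-11), and Vdr, the vitamin D receptor, had 53.5, 65.4 and 176 CPM in skin and 0.577, 1.06 and 1.39 CPM in gonadal adipose (6.53 ± 0.36, adjusted p = 5.45e-09). Rbp4, the retinol carrier that adipocytes secrete, was lower, with 10.9, 25.3 and 36.3 CPM in skin and 386, 507 and 847 CPM in gonadal adipose (-4.61 ± 0.21, adjusted p = 8.08e-10). Also lower was the retinoid X receptor Rxra (128, 203 and 230 CPM in skin and 211, 247 and 300 CPM in gonadal adipose; -0.35 ± 0.15, adjusted p = 0.049), whose call was lost when scaled to the library total (-0.12, adjusted p = 0.473), with the animal as a block (-0.43, adjusted p = 0.119) and when 8 of the 13 libraries were left out in turn, skin females 1 and 3, skin males 1 and 2 and the 4 gonadal males. Vdr was highest in skin males 1 and 2.

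Steroid genes gave 9 of 21 higher in skin and 7 lower (median 0.06). Sult2b1, the cholesterol sulfotransferase of keratinocytes, was higher by 7.72 ± 0.28 (adjusted p = 1.27e-10), and the metallothionein Mt2, a glucocorticoid target, by 2.38 ± 0.25 (adjusted p = 1.89e-06). Hormone receptors were among the lower: Esr1, the estrogen receptor, had 8.69, 23 and 30.8 CPM in skin and 35.3, 68.6 and 149 CPM in gonadal adipose (-2.16 ± 0.17, adjusted p = 1.51e-07), and Nr3c1, the glucocorticoid receptor, was at -1.26 ± 0.16 (adjusted p = 9.19e-06). Hsd11b1, which regenerates active glucocorticoid, had 6.23, 11.7 and 24.9 CPM in skin and 29.3, 138 and 172 CPM in gonadal adipose, where the 4 males had 138 to 172 CPM and the 3 females 29.3 to 45.2 CPM (-2.67 ± 0.39, adjusted p = 3.77e-05).

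Transcripts of organs beside the fat pad were looked for. Of 27 epididymis genes 2 were tested, and Sult1e1, the estrogen sulfotransferase, which adipose tissue of male mice also makes, had 7.92, 3.56 and 20.9 CPM in skin males, 70.7 to 106 CPM in gonadal males and at most 0.0321 CPM in females of either tissue (-2.95 ± 0.45, adjusted p = 5.71e-05). Of 9 tested genes of ovary, oviduct and uterus, 3 were higher in skin and 3 lower. Oxtr, the oxytocin receptor, had 1.715, 5.29 and 7.51 CPM in skin and 31.3, 45.3 and 539 CPM in gonadal adipose, with 539 CPM in female 1, the library with muscle transcripts (-4.47 ± 0.62, adjusted p = 2.49e-05, and -3.66 without it). Among the 3 higher was Krt23, a keratin with 261, 330 and 389 CPM in skin and at most 0.641 CPM in gonadal adipose. Of 18 pancreas and intestine genes 2 were tested, Cela1 and Vil1, and both were lower in skin (-2.99 ± 0.55 and -3.33 ± 0.78). Cela1, a pancreatic elastase, was highest in gonadal male 1 at 74.2 CPM and had 8.46 to 15.6 CPM in the other 6 gonadal libraries, and Vil1, an intestinal actin-binding protein, was highest in gonadal male 2 at 6.73 CPM. Without gonadal male 1 Cela1 was at -2.34 (adjusted p = 1.83e-06). The count lower in skin was 1 in females alone. It was also 1 without any one of gonadal females 1 and 2 and gonadal males 1 to 4. In these settings neither gene lost its call while tested, so the lower count reflects a member that was no longer tested.

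The skin over gonadal contrast differed between the sexes at 175 genes (1.05% of those tested; 90 with a higher and 85 with a lower log2 fold change in males). This count rested on single libraries: it was 26 without skin males 1 and 2, 34 without skin male 2 and 3439 without skin male 3. Leaving out skin female 1, 2 or 3 gave 38, 45 and 43, skin male 1 gave 68, gonadal females 1 and 2 gave 63 and 58, and gonadal males 1 and 4 gave 55 and 56. Of the 8 named genes with the smallest p, 6 differed mainly in the gonadal fat. Pcp4, a calmodulin-binding peptide, had 13, 20.8 and 46.8 CPM in the gonadal females and at most 0.190 CPM in the gonadal males, beside 0.672 to 0.862 CPM in skin (8.38, adjusted p = 0.0014). Tnfrsf19, a receptor of the tumour necrosis factor family, averaged 142 and 127 CPM in skin males and females and 0.466 and 8.64 CPM in gonadal males and females (4.37), and Tuba8, a tubulin, averaged 89.5 and 77.3 CPM in skin and 0.72 and 3.08 CPM in gonadal adipose (2.30). Cxcl14 went the same way (1.84), with gonadal means of 3.52 CPM in males and 9.15 CPM in females. Trim29, a tripartite motif protein of epithelia, and Tspan5, a tetraspanin, were lower in males minus females (-2.61 and -2), with gonadal means of 3.77 and 46.3 CPM in males and 0.604 and 14 CPM in females. Elovl3, an elongase of sebum and brown fat, differed in both tissues, averaging 48.8 and 6.34 CPM in skin males and females and 0.0889 and 2.82 CPM in gonadal males and females (7.88, adjusted p = 0.0014), and Atp12a, a proton pump, averaged 21.4 and 4.23 CPM in skin males and females with no count in gonadal males. In skin, Elovl3 was at 63.3 and 63.2 CPM in males 1 and 2 and 19.9 CPM in male 3.

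In the Q175 libraries 7107 of 16568 genes tested (42.9%) were higher in skin and 6764 (40.8%) lower. Of the 6040 genes higher in wild-type skin, 5489 (90.9%) were called higher in Q175 skin too and 50 lower, and of the 5692 lower genes 5188 (91.1%) were called lower and 20 higher. Past the 2-fold test the shares were 94.8% (2587 of 2729) and 96.1% (2284 of 2377). The calls of several lists were all made again: 22 of 22 cornified genes, 29 of 29 adipocyte genes, 27 of 27 muscle genes and 17 of 17 endothelial genes were called in the same direction. Lists with transcripts of skin males 1 and 2 varied. Of their calls 1 of 4 repeated for melanocytes, 5 of 7 for hair shaft and 3 of 3 for inner root sheath. For outer root sheath 11 of 13 repeated, and for hair matrix 20 of 23. Other lists also fell short, with 15 of 24 for interstitial matrix and 6 of 9 for nerve. Dct stood at -0.51 and Pmel at 0.69 on the log2 scale in Q175 mice, beside 2.64 and 3.65 in wild type. Tchh was 2.60 in Q175 mice, against 9.72 in wild type, and Krt31 was not among the genes tested there. Col1a1 and Col1a2 both stood at 0.47 in Q175 mice, beside 1.68 and 1.45 in wild type. Among the macrophage genes 3 of 7 calls repeated.

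**Figure D5:**
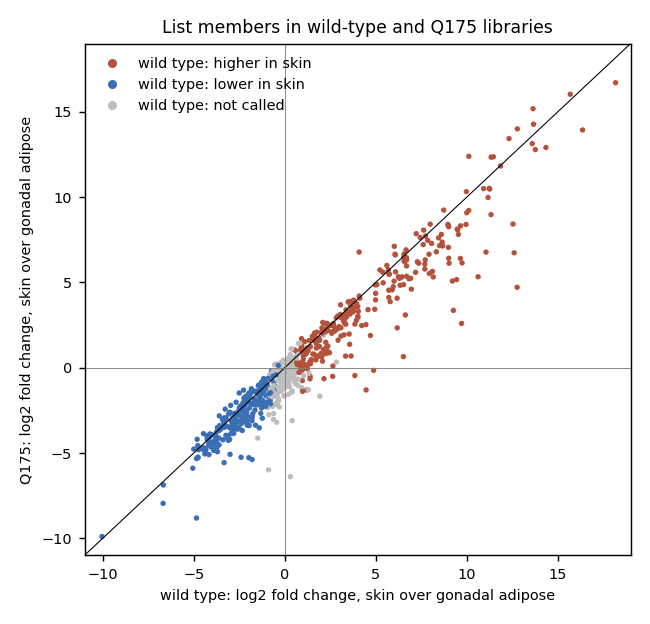
Log2 fold change of skin over gonadal adipose for 628 list members in wild-type (horizontal) and Q175 (vertical) libraries, coloured by the wild-type call, with the line of equality, leaving out genes with 3 or fewer counts in a tissue. Points far below the line at the right are hair genes such as Tchh, at 9.72 in wild type and 2.60 in Q175.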

How the data were processed

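RNA of 13 wild-type and 16 Q175 libraries was compared. The expected counts per gene, estimated rather than whole, and the FPKM values are the authors' deposited tables over 173 libraries. Per the submitters' processing notes CASAVA 1.8.2 was used, and for aligner, genome build, annotation and strand the setting is not given in the sources used here. Expected counts were rounded to whole numbers.

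Genes were kept by edgeR's filterByExpr by tissue, scaled by TMM and tested with edgeR 4.0.16 (R 4.3.3, robust quasi-likelihood, tissue and sex, Benjamini-Hochberg adjustment). A second test used a 2-fold null, and a further model a sex by tissue term. Q175 libraries were fitted alone. Alternatives used DESeq2 1.42.0, limma 3.58.1 (voom with the animal correlation estimated at -0.124, or on log2(FPKM + 1) or log2(FPKM + 0.1)), other scalings, no filter, left-out libraries, and the animal as a block. Of 8 animals 5 gave both tissues. Their paired deviations from the tissue means correlated at -0.0596 to 0.09, and the pairing comes from the animal codes in the file headers. The per-gene test of tissue was tried on simulated counts in which far fewer genes changed than were called here. The 2-fold null, the sex by tissue term, the floors and the list counts were not tried in this way. Sequences and promoters are from RefSeq (GRCm38.p6).

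The members, the 38 gene lists (812 of 823 symbols in the table) and the tests were chosen with earlier results of these data known. Named genes were the 4 markers, up to 12 largest differences per direction (past 2-fold, no overlap, mean of at least 10 CPM), up to 4 called members per list and direction by mean CPM, and 8 genes of the sex term. Called positional factors could also be named, and other genes in the text were chosen after their values were seen. Folds against a tissue without counts use a floor of 3 counts over its libraries. Counting intervals and floors cover counting error only. Some named-rule genes are not reported here.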

Additional observations from a re-analysis of the deposited data

Results flagged for a closer look

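By Dixon's test, samples stood far from the others of their tissue in 34 of 373 group and item combinations examined. Of the 34, 26 were in gonadal adipose. The usual rate of about 1 in 20 groups by chance assumes normal values and does not hold for CPM without logs. All flags but that of Hoxa7 were on the highest side. Genes were also counted beside sums of lists that hold them. The test seeks a single sample apart and can miss a pair. The hair shaft sums of skin males 1 and 2, at 24790 and 16880 CPM, raised no flag. The other skin libraries had 72.57 to 95.62 CPM. The flag counts therefore do not show which tissue was less uniform.

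In gonadal female 1 the skeletal muscle list summed to 886.5 CPM, with Myh4 at 85.11, Acta1 at 127.7, Atp2a1 at 57.32 and Tnnt3 at 41.92 CPM. The same library was highest for the ovary, oviduct and uterus list at 736.5 CPM, for Oxtr at 539 CPM, for Wnt4 at 5.389 CPM and for Acsl3 at 24.76 CPM. In gonadal female 2 the lipolysis list summed to 29660 CPM, and in gonadal female 3 Tchh had 2.292 CPM. In gonadal male 1 the pancreas and intestine list summed to 889.6 CPM, with Cela1 at 74.24 CPM and Cd3e at 1.32 CPM. In gonadal male 2 Dsp had 9.692, Cdh1 6.896 and Vil1 6.733 CPM. In gonadal male 3 the basement membrane list summed to 7370 CPM, the interstitial matrix list to 12740 CPM and the basal epidermis list to 857.3 CPM, with Col4a1 at 1583, Col4a2 at 873.5, Egr2 at 14.49 and Mcpt4 at 19.16 CPM. In gonadal male 4 Mki67 had 9.321 and Trps1 45.42 CPM.

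In skin the smooth muscle list summed to 1832 CPM in female 3, with Des at 1424 CPM. Skin female 1 was highest for Jchain at 5.88 and Gys2 at 1.291 CPM. Skin male 3 was highest for Asprv1 at 1250 and Krt14 at 3698 CPM, skin male 2 was highest for Slpi at 9.31 CPM, and skin male 1 was lowest for Hoxa7 at 26.53 CPM.

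The difference of the contrast between the sexes, males minus females on the log2 scale, passed the interaction test for Trim29 (-2.607), Elovl3 (7.881), Tspan5 (-1.997), Pcp4 (8.385), Cxcl14 (1.843), Tuba8 (2.3), Tnfrsf19 (4.373), Atp12a (9.595), Hoxc8 (-1.581), Hoxa11 (9.22), Hoxc10 (5.169), Hoxa10 (4.262) and Hoxc4 (-2.067). The sizes for Atp12a (0 CPM in gonadal males and a mean of 0.4995 CPM in gonadal females) and Hoxa11 rest on values near the floor.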

How the results depend on the processing

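Leaving out each library gave 5910 to 6075 genes higher in skin, 5325 to 5732 lower, 2670 to 2762 past 2-fold higher, 2219 to 2477 past 2-fold lower, and 309 to 322 and 223 to 235 list members higher and lower. With the replicate block of animals 5094 genes were higher and 4831 lower, and list members 294 and 215. The block changed no other call of a named gene than those given with it above. On deposited FPKM the count lower past 2-fold was 965 with a pseudocount of 1 and 1504 with 0.1, against 2377, and the split of all calls was 7288 higher and 4573 lower, and 7323 and 4617. The cause was not tested. The count of sex differences was 175 and became 1148 with DESeq2, 111 with no filter on low counts, 26 without skin males 1 and 2, and 34 to 3439 with single libraries left out. Of 173 named genes 5 (Acaa2, Dct, Eda, Hoxa5 and Rxra) lost their call when a library was left out and they were still tested. In each gonadal leave-out 170 to 172 of the 173 were tested, and a gene that dropped out of the test was not counted as lost. Directions turned for Dct without skin males 1 and 2 (-0.49), for Pcp4 in males alone (3.31), for Elovl6 in males alone (1.55) and for Hoxa9 in females alone (-1.49). Further lost calls included those of Hoxa5 (0.22) and Hoxa7 (0.64) in males alone, and Bnc1 (0.60) and Pmel (0.72) in females alone. They also included Hoxa5 with the animal correlation estimated (0.49), Vil1 on log2(FPKM + 1) (-0.38) and Sult1e1 with no sex term (-3.14). Rxra, Eda and Dct were also not called on either FPKM scale or in females alone. Rxra and Eda were not called without skin males 1 and 2, and Rxra and Dct with no filter. Scaling by RLE size factors lost Rxra, and scaling to the library total lost Eda. Depth limits the genes near the floor of 3 counts.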
